A study of Mus musculus with 4 samples.

Results

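The cytochrome P450 family was followed across the epithelium of the adult mouse small intestine. Members were the columns of the count files whose symbol is Cyp, digits, a lower-case letter and digits, with or without a trailing letter or pseudogene suffix. The rule took 87 of 25289 columns, in 36 subfamilies. A cell was kept if it had 1000 counts or more from 300 genes or more, with a mitochondrial share no higher than 30%. Lats-deleted mice carried Lrig1-CreERT2, a tamoxifen-dependent recombinase made under Lrig1, a gene of crypt stem and progenitor cells, together with floxed Lats1 and Lats2 (Lats1fl/fl Lats2fl/fl). Control mice carried the same floxed alleles with no Cre named in their genotype, so recombinase activity and loss of the genes cannot be told apart. All mice were C57BL/6J adults. They were given 2 mg tamoxifen intraperitoneally, and cells were taken 7 days later. Live EpCAM+ CD45- TER119- cells, 5000 per condition, were sorted and encapsulated by inDrop, a droplet method that tags RNA cell by cell. Each condition had 2 libraries. Nothing in the labels says whether these were separate animals, so p-values measure the spread between libraries, which may be technical.

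Cytochrome P450s are haem monooxygenases of the endoplasmic reticulum or the mitochondrial inner membrane that insert oxygen into drugs, dietary compounds, steroids, bile acids, retinoids, vitamin D and fatty acids. Most need electrons from P450 oxidoreductase or, in mitochondria, from ferredoxin. In the small intestine they are best known in absorptive enterocytes of the villus, where Cyp3a enzymes meet swallowed compounds first. Their genes are controlled in liver and gut by nuclear receptors such as the pregnane X receptor (Nr1i2), the constitutive androstane receptor (Nr1i3), the vitamin D receptor (Vdr) and Hnf4a. The Hippo kinases Lats1 and Lats2 phosphorylate the coactivators YAP and TAZ and keep them in check.

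Lats-deleted libraries 1 and 2 held 726 and 1289 kept cells, against 774 and 515 in control libraries 1 and 2, from 4995 and 16791 barcodes, against 4398 and 3947. Median counts per kept cell were 3715.5 and 3848 in Lats-deleted libraries and 1708 and 1995 in control libraries, and median mitochondrial shares were 3.64% and 3.90%, against 9.55% and 6.84%. Pairs of libraries shared 4 to 12 barcodes among kept cells. Enterocyte-like cells, named from marker genes in clusters built without the P450 columns, made up 4.41% and 1.47% of Lats-deleted cells and 71.1% and 63.5% of control cells. The 15 enterocyte markers, none of them at 0 in either group, summed to 0.160% and 0.0764% of counts in Lats-deleted libraries, against 2.86% and 2.81% in control libraries. The 8 stromal markers, none at 0 in either group, held 0.136% and 0.0149% in Lats-deleted libraries, against 0.00337% and 0.00252% in control libraries, although the sort was for EpCAM, for which no column was used. The 7 gastric pit markers with a column held 0.00803% and 1.00%, against 0.00125% and 0.00163%, with Muc1 at 0 in control libraries. The 15 regenerative markers held 1.85% and 1.42%, against 0.00942% and 0.00952%, with Mal at 0 in control libraries. The 9 leukocyte markers held 0.00466% and 0.00269%, against 0.0352% and 0.0204%, with Cd3g at 0 in control libraries. The sort took CD45- cells, and 512 of 564 and 208 of 251 of these counts in control libraries lay in enterocyte-like cells. The sum, whose list includes Cd74, is therefore not read as leukocytes in the sort. The sex-linked genes also split by group, and the labels used here name no sex. Xist, the RNA made from the inactive X chromosome, had 585 and 478 CPM (counts scaled to 1e6 per library, here with edgeR's TMM factors) in Lats-deleted libraries and 10.6 and 7.03 CPM in control libraries, while 4 Y-linked genes summed to 31.8 and 24.0 CPM, against 106 and 117 CPM. Genotype and these sex markers therefore cannot be told apart in any comparison of the groups. Lats1 had 7.58 and 9.78 CPM (here without those factors), against 20.6 and 32.6 CPM, and Lats2 had 29.8 and 21.3 CPM, against 8.11 and 9.77 CPM. The counts come from tags near transcript ends whose place relative to the deleted part is not given, so these levels check nothing about the deletion.

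P450 transcripts were several-fold scarcer in Lats-deleted libraries. The 87 members summed to 609 and 515 plain CPM (scaled to the library's kept counts alone) in Lats-deleted libraries, against 5887 and 4680 CPM in control libraries, or 0.0609% and 0.0515% of counts, against 0.589% and 0.468%. Both Lats-deleted libraries lay below both control libraries. The Cyp3a subfamily, the broad drug and steroid oxidases, was the largest block, with 161 and 125 CPM in Lats-deleted libraries and 2664 and 1932 CPM in control libraries. Its share of all member counts was 26.5% and 24.4% in Lats-deleted libraries and 45.2% and 41.3% in control libraries. Cyp2c, which holds arachidonic acid epoxygenases, summed to 36.8 and 33.8 CPM, against 794 and 619 CPM. Cyp4f, the hydroxylases of leukotrienes and long fatty acids, summed to 77.8 and 56.6 CPM, against 706 and 667 CPM. In each of these subfamilies the libraries of the groups did not overlap. Here and below, the share of all genes without overlap is not given, so a lack of overlap is only a description. In a sum over all kept cells, fewer cells of a type and less RNA per cell cannot be told apart, and the enterocyte marker sum above moved with the P450 sum.

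**Figure D1:**
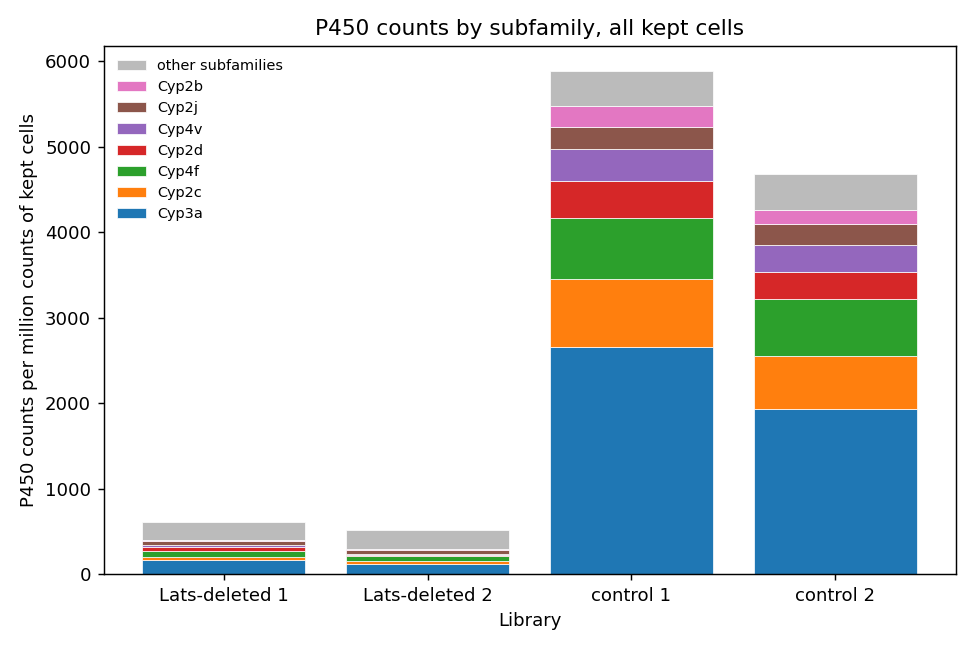
Summed level of the P450 members in each library, in plain CPM, stacked by subfamily, with Lats-deleted libraries left of control libraries. The Lats-deleted bars reach 609 and 515 CPM and the control bars 5887 and 4680 CPM, with Cyp3a the tallest block in each control bar.

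Gene by gene, 40 of the 87 members passed the filter on low counts and were tested between 2 Lats-deleted and 2 control libraries with edgeR's quasi-likelihood test, with Benjamini-Hochberg adjustment over all 12561 genes tested. At an adjusted p under 0.05, 28 members were lower in Lats-deleted libraries, against a background of 15.5% of all genes tested, and 2 were higher, against a background of 15.3%. Another 10 were not called. The median log2 fold change of the 40 members was -3.29, and that of all genes tested was 0.046. A member that passed the filter only through the control libraries had to be lower. The median and the counts of lower members, here and by subfamily, therefore describe the tested members and not the family. From here, CPM of single members over all kept cells are TMM-scaled, by edgeR's trimmed mean of M values.

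Every one of the 7 Cyp3a members was tested, and each was lower in Lats-deleted libraries, with log2 fold changes from -6.73 to -3.38. Cyp3a16, Cyp3a41a, Cyp3a41b and Cyp3a44 passed the filter only through the control libraries, so being tested already set their direction. Cyp3a11, the main Cyp3a enzyme of mouse liver and gut, had 17.4 and 8.61 CPM in Lats-deleted libraries and 1128 and 787 CPM in control libraries. Each Lats-deleted value was far below both control values, and the log2 fold change was -6.22 ± 0.45 (SE, adjusted p = 0.000275). Cyp3a25, a close relative in the same gene cluster at chr5:145977194-146009618, had 3.85 and 2.76 CPM in Lats-deleted libraries, against 248 and 230 CPM in control libraries, a log2 fold change of -6.19 ± 0.28 (adjusted p = 0.000183). Cyp3a13, the form typical of mouse intestine, lies apart at chr5:137892932-137921619 in GRCm38. It had 122 and 106 CPM in Lats-deleted libraries and 1462 and 913 CPM in control libraries. Its groups were also separate, but its log2 fold change of -3.38 ± 0.31 (adjusted p = 0.000545) was the smallest of the subfamily, and it was the member with the most counts left in Lats-deleted libraries.

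Further members of the Cyp3a cluster on chromosome 5 are known from mouse liver for female-biased (Cyp3a41a, Cyp3a44) or early-life (Cyp3a16) expression. Cyp3a41a had 0.770 and 0.487 CPM in Lats-deleted libraries, against 75.0 and 60.6 CPM in control libraries (log2 fold change -6.73 ± 0.38, adjusted p = 0.000184). Only 3 counts stood behind each Lats-deleted value, far below both control values. Its near-identical copy Cyp3a41b had 0.770 and 0.487 CPM, against 73.6 and 60.6 CPM. The pair had equal counts in 135 of the 137 cells with a count for either gene (98.5%). It therefore cannot be separated and is in effect 1 measurement, although both copies enter every count of members given here. Cyp3a44 had 0.513 and 0.487 CPM in Lats-deleted libraries and 22.7 and 23.7 CPM in control libraries, and was called lower at -5.43 (log2). Cyp3a16 had 1.80 and 0.325 CPM, against 15.6 and 9.67 CPM (-3.72 ± 0.70, adjusted p = 0.00839), but it missed the threshold without control library 1 (adjusted p = 0.129) or control library 2 (0.0515). Cyp3a41a and Cyp3a44 were low in the libraries with high Xist. Enterocyte-like cells held 97.2% and 98.6% of Cyp3a41a counts and 100% and 96.3% of Cyp3a44 counts in control libraries. Such cells were few in Lats-deleted libraries. In them Cyp3a41a had 13.1 and 0 plain CPM (scaled to the counts of these cells), against 92.1 and 90.9 CPM in control ones. Cyp3a44 had 13.1 and 0 CPM there, against 28.6 and 34.8 CPM. Each Lats-deleted pair rests on 1 and 0 counts, and the 0 in library 2 allows up to 60.1 CPM. The parts of cell type and of sex in these levels were not tested.

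The promoters of 5 members that were lower and of 1 that was higher are shown because their windows differ in motif matches and base composition, described after them. Each window runs 5′ to 3′ on the gene's strand, from 250 bases before to 50 bases after the start, from RefSeq on GRCm38.p6. They lie at chr5:145879805-145880104 on the minus strand for Cyp3a11, chr5:146009569-146009868 on the minus strand for Cyp3a25 (of 2 windows, the one farther upstream) and chr5:137921570-137921869 on the minus strand for Cyp3a13. The others lie at chr19:39060756-39061055 on the plus strand for Cyp2c65, chr15:82794196-82794495 on the minus strand for Cyp2d26 and chr1:60343050-60343349 on the plus strand for Cyp20a1. Capitals mark matches, on either strand, to the motifs CAAAGTNCA (a core of the Hnf4a site), AGGTCA (a nuclear receptor half-site), GTTAAT (Hnf1), TTTATNG (Cdx), GGAATG (the TEAD partners of YAP) or GCGTG (the aryl hydrocarbon receptor); none of them contains another.
Cyp3a11: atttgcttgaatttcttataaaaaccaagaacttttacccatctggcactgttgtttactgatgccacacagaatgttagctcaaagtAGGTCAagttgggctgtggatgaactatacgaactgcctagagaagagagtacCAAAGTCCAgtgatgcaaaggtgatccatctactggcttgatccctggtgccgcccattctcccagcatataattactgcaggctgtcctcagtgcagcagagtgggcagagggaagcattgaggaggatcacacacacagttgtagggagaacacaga
Cyp3a25: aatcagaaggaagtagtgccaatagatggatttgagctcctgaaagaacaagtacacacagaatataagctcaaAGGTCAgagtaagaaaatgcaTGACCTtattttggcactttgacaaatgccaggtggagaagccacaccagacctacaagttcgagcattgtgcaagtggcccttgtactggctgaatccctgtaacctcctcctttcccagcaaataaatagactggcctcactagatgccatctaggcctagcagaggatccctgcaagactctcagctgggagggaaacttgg
Cyp3a13: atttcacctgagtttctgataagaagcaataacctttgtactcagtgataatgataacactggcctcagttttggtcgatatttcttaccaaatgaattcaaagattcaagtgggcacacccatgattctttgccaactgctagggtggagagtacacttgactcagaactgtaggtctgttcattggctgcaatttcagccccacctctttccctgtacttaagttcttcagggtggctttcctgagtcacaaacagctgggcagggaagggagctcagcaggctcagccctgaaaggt
Cyp2c65: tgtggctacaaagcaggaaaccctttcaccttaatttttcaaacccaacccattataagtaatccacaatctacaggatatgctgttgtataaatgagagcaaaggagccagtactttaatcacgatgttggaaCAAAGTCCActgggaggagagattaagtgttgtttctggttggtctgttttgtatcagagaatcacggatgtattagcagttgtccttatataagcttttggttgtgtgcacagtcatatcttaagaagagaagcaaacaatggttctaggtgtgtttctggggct
Cyp2d26: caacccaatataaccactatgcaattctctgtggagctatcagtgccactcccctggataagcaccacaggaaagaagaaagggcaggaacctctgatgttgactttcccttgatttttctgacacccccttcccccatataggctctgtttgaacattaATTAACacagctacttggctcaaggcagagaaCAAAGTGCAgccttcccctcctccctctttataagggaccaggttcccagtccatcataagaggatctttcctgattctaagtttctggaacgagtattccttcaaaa
Cyp20a1: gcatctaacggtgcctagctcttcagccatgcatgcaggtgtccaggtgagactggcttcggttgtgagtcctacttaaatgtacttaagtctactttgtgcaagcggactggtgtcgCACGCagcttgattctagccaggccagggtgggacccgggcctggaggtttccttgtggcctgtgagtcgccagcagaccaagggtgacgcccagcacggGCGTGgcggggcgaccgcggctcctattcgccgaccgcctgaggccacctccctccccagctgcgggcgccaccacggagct

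The capitals in Cyp3a11 are AGGTCA, starting at -162 from the start site, and the Hnf4a core at -109. Cyp3a25 holds AGGTCA at -176 and again on the other strand at -155. The Hnf4a core lies at -116 in Cyp2c65 and at -58 in Cyp2d26, where GTTAAT lies on the other strand at -90. Cyp20a1 holds GCGTG on the other strand at -132 and again at -32. None of the 6 motifs is in the window of Cyp3a13. Cyp20a1 also differed in base composition, with 63.0% G+C and 20 CpG dinucleotides, while the 5 windows of lower members had 39.7% to 46.7% G+C and 1 or 2 CpG. The Hnf4a core was in 10 of the 27 lower members with a promoter entry (37.0%), in 15 of all 65 members with one (23.1%) and in 444 of 27025 genes (1.64%). It was in 38 of 1430 other genes called lower (2.66%) and in 18 of 1440 other genes called higher (1.25%). The 10 were Cyp2c40, Cyp2c65, Cyp2c67, Cyp2c68, Cyp2d26, Cyp3a11, Cyp3a16, Cyp3a41a, Cyp3a41b and Cyp3a44, mostly paralogues whose promoters share ancestry, so they are not independent. It was also in 5 of 14 enterocyte reference genes (35.7%), a share close to that of the lower members. AGGTCA was in 18.5% of lower members and 18.1% of all genes, and GTTAAT was in 18.5% and 8.24%. TTTATNG was in 7.41% of lower members and 12.5% of all genes, GGAATG in 14.8% and 16.6%, and GCGTG in 18.5% and 35.2%. A match is a run of letters and was not tested as a bound site.

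The Cyp2 subfamilies that metabolise drugs and arachidonic acid were low in the same libraries. Cyp2b10, the textbook target of the constitutive androstane receptor, had 3.33 and 2.27 CPM in Lats-deleted libraries and 238 and 149 CPM in control libraries (log2 fold change -6.13 ± 0.37, adjusted p = 0.000193). Cyp2b9, known as female-biased in mouse liver, had 0.513 and 0.812 CPM, against 21.9 and 22.9 CPM, and was lower at -4.94 (log2). The groups did not overlap for either, and no other Cyp2b member was tested. Cyp2c65 and Cyp2c66 are intestinal epoxygenases that lie side by side on chromosome 19. Cyp2c65 had 18.5 and 16.7 CPM in Lats-deleted libraries and 554 and 376 CPM in control libraries (log2 fold change -4.72 ± 0.30, adjusted p = 0.000202). Cyp2c66 had 5.13 and 4.55 CPM, against 261 and 180 CPM (-5.51 ± 0.31, adjusted p = 0.000184). The groups were again apart, and of the 15 Cyp2c members 6 were tested and 5 were lower. Cyp2c40 had 1.54 and 0.162 CPM in Lats-deleted libraries and 14.2 and 29.9 CPM in control libraries, a call lost without control library 2 (adjusted p = 0.0599). Cyp2c68 had 1.03 and 0.487 CPM, against 24.1 and 36.0 CPM. Cyp2c67 had 1.03 and 0.162 CPM, against 13.5 and 22.9 CPM. Cyp2c40 and Cyp2c67 had equal counts in 43 of 58 cells (74.1%), so reads may be split between these copies and their separate values are uncertain.

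Of the 9 Cyp2d members, 4 were tested, and they did not move as a block. Cyp2d26, the one with the most counts, had 13.9 and 4.71 CPM in Lats-deleted libraries and 441 and 308 CPM in control libraries (log2 fold change -5.38 ± 0.53, adjusted p = 0.000669), and Cyp2d10 was also lower at -3.86 (log2), with 1.03 and 0.325 CPM, against 9.20 and 9.67 CPM, but not without control library 1 (adjusted p = 0.0705) or control library 2 (0.059). Cyp2d34 was called higher, with 4.10 and 3.90 CPM in Lats-deleted libraries, against 0.708 and 0.879 CPM in control libraries (log2 fold change 2.29 ± 0.68, adjusted p = 0.0429). That call rests on 40 Lats-deleted and 2 control counts, a ratio of 5.07 with a counting interval of 1.32 to 43.3, and was lost without control library 1 (adjusted p = 0.245) or control library 2 (0.198). Cyp2d22, a member found in many tissues, had 9.75 and 2.11 CPM, against 21.9 and 14.9 CPM, and was not called (-1.71, adjusted p = 0.104). Of the 38 counts in Lats-deleted library 1, 28 lay in 71 stromal-like cells, whose part in the value was not tested. Without that library the fold change was -3.12 (adjusted p = 1.47e-07). Cyp2j6, an intestinal oxidase of fatty acids and drugs, was lower but kept more of its level, with 38.5 and 36.1 CPM in Lats-deleted libraries, against 276 and 255 CPM in control libraries (-2.83 ± 0.21, adjusted p = 0.000295). It was the 1 tested member of the 6 in Cyp2j.

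Among the Cyp4 enzymes, which oxidise fatty acids and eicosanoids, all 6 tested Cyp4f members of 8 were lower. Cyp4f14, which inactivates leukotriene B4 in the mouse, had 10.3 and 4.87 CPM in Lats-deleted libraries and 285 and 301 CPM in control libraries (log2 fold change -5.31 ± 0.38, adjusted p = 0.00027). It was the Cyp4f gene with the largest change. Cyp4f13 had 24.4 and 16.9 CPM, against 179 and 159 CPM (-3.04), and Cyp4f16 had 26.4 and 24.0 CPM, against 267 and 193 CPM (-3.19). Cyp4f15, Cyp4f37 and Cyp4f40 were lower at -2.68, -3.07 and -3.14 (log2), and are given in turn. Cyp4f15 had 1.80 and 1.79 CPM in Lats-deleted libraries, against 12.7 and 10.55 CPM in control libraries, a call lost without control library 1 (adjusted p = 0.0739). Cyp4f37 had 3.59 and 2.92 CPM, against 29.7 and 24.6 CPM, and Cyp4f40 had 3.59 and 2.27 CPM, against 24.8 and 26.4 CPM. None of the 6 overlapped between the groups, with no share of all genes to set beside this. Cyp4v3, the mouse counterpart of the human fatty acid hydroxylase CYP4V2, had 24.9 and 10.1 CPM, against 435 and 349 CPM (-4.51 ± 0.46, adjusted p = 0.000739). Cyp4a10, a classic target of the fatty acid receptor Ppara, had 4.36 and 1.95 CPM in Lats-deleted libraries and 80.0 and 107 CPM in control libraries (-4.94). Cyp4b1 had 26.2 and 15.1 CPM, against 144 and 111 CPM, and was lower by less (-2.64 ± 0.32, adjusted p = 0.00149).

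Of the mitochondrial sterol and steroid enzymes, Cyp11a1 and Cyp27a1 were tested and lower, while Cyp11b1, Cyp11b2, Cyp24a1 and Cyp27b1 were too scarce to test. Cyp11a1, which makes pregnenolone from cholesterol and starts steroid synthesis in the adrenal and, in the mouse, in intestinal crypts, had 6.67 and 3.41 CPM in Lats-deleted libraries and 48.1 and 36.0 CPM in control libraries (log2 fold change -3.10 ± 0.40, adjusted p = 0.00192). Cyp27a1, the sterol 27-hydroxylase, had 2.57 and 0.812 CPM, against 34.0 and 40.4 CPM (-4.54 ± 0.50, adjusted p = 0.00107). Both were far apart between the groups. Cyp20a1, whose substrate is not established, was the other member called higher, with 30.3 and 29.2 CPM in Lats-deleted libraries, against 7.79 and 7.91 CPM in control libraries (1.92 ± 0.30, adjusted p = 0.00427). Its Lats-deleted libraries were above both control libraries, but the call was lost without control library 1 (adjusted p = 0.0569).

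The other members were not called, and for some the value moved when 1 library was left out. Cyp2s1, an epithelial P450 outside the liver, had 23.1 and 60.4 CPM in Lats-deleted libraries and 70.1 and 49.2 CPM in control libraries, so the groups overlapped (log2 fold change -0.51 ± 0.45, adjusted p = 0.440). Of its 372 counts in Lats-deleted library 2, 220 lay in gastric pit-like cells, and without that library the fold change was -1.39 (adjusted p = 3.22e-06). Cyp2e1, the ethanol oxidase, had 13.6 and 15.1 CPM, against 10.6 and 13.2 CPM (0.28, adjusted p = 0.558). Cyp4x1, an orphan P450 known from mouse brain, had 17.2 and 28.1 CPM, against 14.2 and 15.8 CPM (0.61, adjusted p = 0.241; 0.91 and 0.0202 without Lats-deleted library 1). Cyp21a1, the steroid 21-hydroxylase, had 13.6 and 13.2 CPM in Lats-deleted libraries and 7.08 and 4.39 CPM in control libraries, separate but not called (1.19, adjusted p = 0.0599). It was called higher under 6 alternatives, among them plain library totals (1.45, adjusted p = 0.0287) and leaving out Lats-deleted library 1 (1.16, adjusted p = 0.0498). Cyp19a1, the aromatase that makes oestrogens, had 5.64 and 3.41 CPM, against 2.12 and 7.91 CPM, and overlapped. The others not called were Cyp2c44, Cyp2u1, Cyp26b1, which breaks down retinoic acid, and Cyp39a1, an oxysterol hydroxylase, at -0.33, -1.24, -0.84 and 0.21 (log2).

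**Figure D2:**
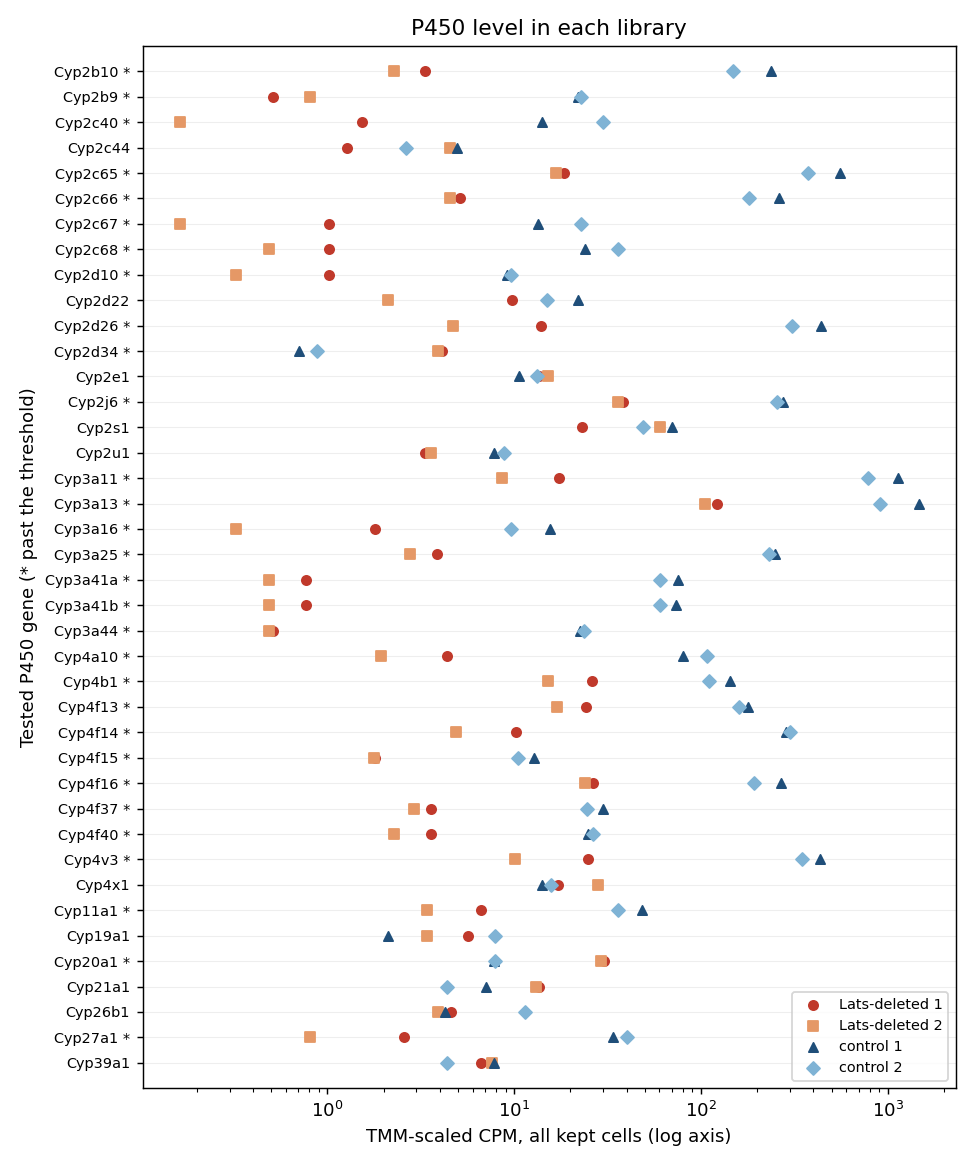
Level of each of the 40 tested members in each library, in TMM-scaled CPM on a log axis, with asterisks at members past the threshold. Most members sit well to the lower side in Lats-deleted libraries, such as Cyp3a11 with 17.4 and 8.61 CPM against 1128 and 787 CPM, while Cyp20a1 and Cyp2d34 are the members called higher.

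The 47 untested members were scarce, at 0 to 14.1 CPM in Lats-deleted libraries and 0 to 12.0 CPM in control libraries. Medians of their group means were 0.710 CPM in Lats-deleted libraries and 1.23 CPM in control libraries. In Lats-deleted libraries 1 of them, Cyp2c50, was at 0 in both libraries, and in control libraries 3 were. None of the 4 Cyp2a members was tested, and the liver-type bile acid enzyme Cyp7a1 was also in this set. Cyp1b1, named here after its values were seen and known from stromal tissue, had 55 and 14 counts in Lats-deleted libraries and 1 and 2 counts in control libraries. Of the 55, 51 lay in the 71 stromal-like cells of Lats-deleted library 1, a level of 269.8 CPM there (exact Poisson interval 201 to 355, counting error only). Cyp1a1, the aryl hydrocarbon receptor target of the intestine and also named after its values were seen, had 1 and 1 counts, against 0 and 8 counts in control libraries. The group means of Cyp11b1, Cyp2b19, Cyp2c70, Cyp2d11, Cyp2j9 and Cyp7a1 passed 10 CPM only in Lats-deleted enterocyte-like cells, on 0 to 2 counts per library, and are not read further.

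To ask which members differed once enterocyte-like cells were set aside, the same test was run on the 694 and 1270 other cells of Lats-deleted libraries and the 224 and 188 of control libraries. The members then summed to 495 and 479 plain CPM in Lats-deleted libraries, against 1280 and 1188 plain CPM in control libraries. Of 27 members tested, 15 were lower, against a background of 8.97% of 11700 genes, and none was higher, against a background of 7.83%; DESeq2 also gave 0 and 1 was called with no filter on low counts. Over all 11700 genes, 3784 had an unadjusted p under 0.05. The median log2 fold change of the tested members was -1.99, and that of all genes tested was 0.034. Only 5 members were lower without control library 1 and 6 without control library 2. The enterocyte marker sum moved with this comparison too, at 0.0800% and 0.0402% in Lats-deleted cells and 0.661% and 0.692% in control cells, and 15 of 17 tested enterocyte reference genes were lower (median -4.58). Its part in the result was not tested.

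Cyp4f14 had the lowest fold change outside enterocyte-like cells, with 1.41 and 1.17 CPM (TMM-scaled over these cells) in Lats-deleted libraries, against 68.4 and 64.7 CPM in control libraries (-5.67 ± 0.39, adjusted p = 0.000999). Cyp3a11 had 1.97 and 3.50 CPM, against 90.5 and 53.5 CPM (-4.64 ± 0.46, adjusted p = 0.00226), and Cyp2c65 had 12.4 and 15.2 CPM, against 124 and 105 CPM (-3.04 ± 0.28, adjusted p = 0.00182). With Cyp2b10 (-5.11) and Cyp2c66 (-4.10), these were the 5 members called under every alternative in which they were tested. The groups did not overlap for any of the 3 given by library. Cyp2j6 kept a smaller difference, with levels of 36.5 and 33.5 CPM, against 104 and 123 CPM in control libraries (-1.69 ± 0.24, adjusted p = 0.00739). Cyp3a25, Cyp4a10, Cyp2d26, Cyp4v3 and Cyp11a1 were lower at -4.21, -4.74, -4.04, -2.80 and -2.68 (log2). The remaining 4 called were all Cyp4f genes, from -2.77 for Cyp4f40 to -1.47 for Cyp4f16. From Cyp2j6 on, each of these 10 calls was lost without at least 1 of the control libraries. Some were also lost in other ways. Cyp4f15 was not called under DESeq2 (adjusted p = 0.172), with no filter on low counts (0.0903) or with plain library totals (0.0514). Cyp4f16 (0.195) and Cyp4f40 (0.0505) were not called with cells of at least 2000 counts. Cyp3a25 was not called without Lats-deleted library 1 (-4.04).

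Other members were not called outside enterocyte-like cells. Cyp3a13 had 101 and 102 CPM in Lats-deleted libraries and 179 and 136 CPM in control libraries (-0.63 ± 0.24, adjusted p = 0.124), beside -3.38 over all cells. Cyp4b1 had 24.7 and 14.3 CPM, against 28.7 and 24.5 CPM (-0.46, adjusted p = 0.513). The groups stayed apart for Cyp3a13, by less than over all cells, and overlapped for Cyp4b1. Cyp20a1, higher over all cells, had 33.2 and 30.0 CPM, against 22.1 and 13.4 CPM (0.83 ± 0.38, adjusted p = 0.19). Cyp27a1 at -3.10 (adjusted p = 0.0664) and Cyp26b1 at -1.88 (adjusted p = 0.0514) missed the threshold, and Cyp27a1 passed it with no filter on low counts (0.0112), at clustering resolution 2 (0.0254) and when clustered with P450 columns (0.0477). Differences between the pair of comparisons themselves were not tested, since they share cells.

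**Figure D3:**
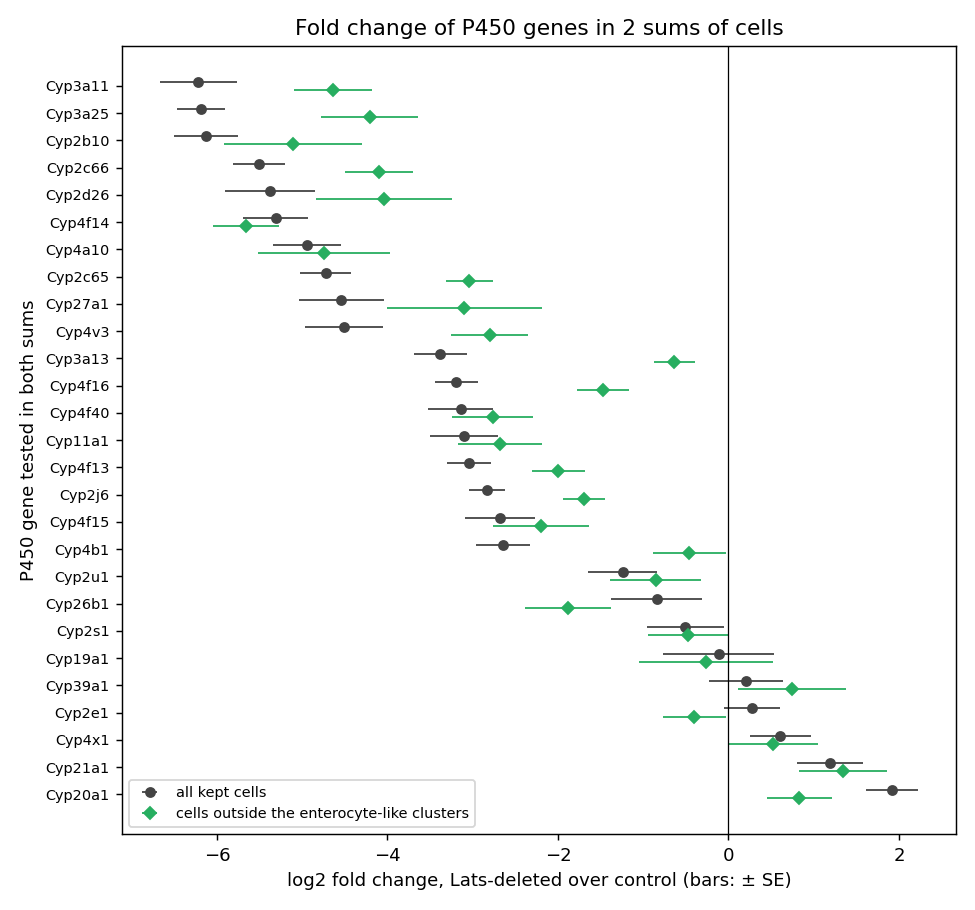
Log2 fold change of Lats-deleted over control libraries, with SE, for the 27 members tested both over all kept cells and outside enterocyte-like cells. Cyp4f14 lies at -5.31 and -5.67, while Cyp3a13 lies at -3.38 over all cells and -0.63 outside enterocyte-like cells.

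Across clusters of at least 20 cells in a library, given in plain CPM of that cluster, most P450 expression lay in the 4 enterocyte-like clusters of control libraries, and each cluster had its own profile. These levels are a description, with no test. Members held 1.15% and 0.873% of counts in cluster 8 (led by Ada and Apoa4) and 0.929% and 1.03% in cluster 4 (led by Pck1, Ace and Lct), but 0.501% and 0.435% in cluster 2 (led by Anpep and Fabp1). Cyp3a11 had 2632 and 1814 CPM in cluster 8, 1776 and 2142 CPM in cluster 4, 1185 and 1223 CPM in cluster 14, and 496 and 427 CPM in cluster 2. It was lowest in cluster 2 in both control libraries. Cyp3a13 was also lowest there, with 894 and 705 CPM, and had 3544 and 2615 CPM in cluster 8. Cyp2c65 varied less, from 496 and 325 CPM in cluster 2 to 937 and 753 CPM in cluster 8. Cyp3a25 did not peak in cluster 8, where it had 243 and 174 CPM, but in cluster 4, where it had 417 and 663 CPM.

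Control clusters without an enterocyte-like name held fewer P450 counts. In cluster 6, led by Pycard, Dmbt1 and Nr5a2, members held 0.171% and 0.182% of counts. Cyp2c65 had 216 and 197 CPM there, below its 496 and 325 CPM in cluster 2, while Cyp3a11 had 55.4 and 16.4 CPM, further below its 496 and 427 CPM in cluster 2. Cyp2j6 had 150 and 230 CPM in cluster 6, close to its 228 and 222 CPM in cluster 8. Cyp11a1 had 61.0 and 32.9 CPM in cluster 6, similar to its 63.4 and 42.0 CPM in cluster 2. Cluster 7, led by Gvin1, Aqp1 and Myb, held 0.0621% and 0.0796%, the lowest shares among control clusters. In goblet-like cells, which secrete mucus and are not known for Cyp3a11, the gene had 188 and 48.5 CPM. The part of free RNA or mixed droplets in such values was not tested.

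Lats-deleted clusters held 0.0238% to 0.148% of counts in members, and the highest was cluster 10. This regenerative-like cluster, led by Clca4a, Reg3b and Dhrs9, held 0.116% and 0.148% in libraries 1 and 2. Cyp3a13 gave 114 of the 257 and 290 of the 515 member counts there, or 515 and 832 CPM, while Cyp3a11 had 0 and 5.74 CPM. Cyp4b1 had 145 and 115 CPM. In the larger regenerative-like cluster 1, led by Thbs1, Ankrd1 and Ctgf, Cyp3a13 had 85.6 and 90.1 CPM and Cyp4b1 had 22.9 and 31.3 CPM. Cyp21a1 was highest in cluster 9, led by Wfdc18 and Duox2, at 70.0 and 60.4 CPM in libraries 1 and 2, where Cyp2j6 also reached 83.1 and 102 CPM. Cyp2s1 was highest in the gastric pit-like cluster 5, present in Lats-deleted library 2 alone, at 267 CPM, where Cyp3a13 had 145 CPM and Cyp2c65 49.9 CPM. The stromal-like cluster 12 of Lats-deleted library 1 had 148 CPM of Cyp2d22 and 138 CPM of Cyp2s1, while Cyp3a11 was at 0, which allows up to 15.9 CPM. Cyp20a1 lay between 19.4 and 59.4 CPM over the Lats-deleted clusters and between 0 and 23.2 CPM over the control clusters, with overlap.

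**Figure D4:**
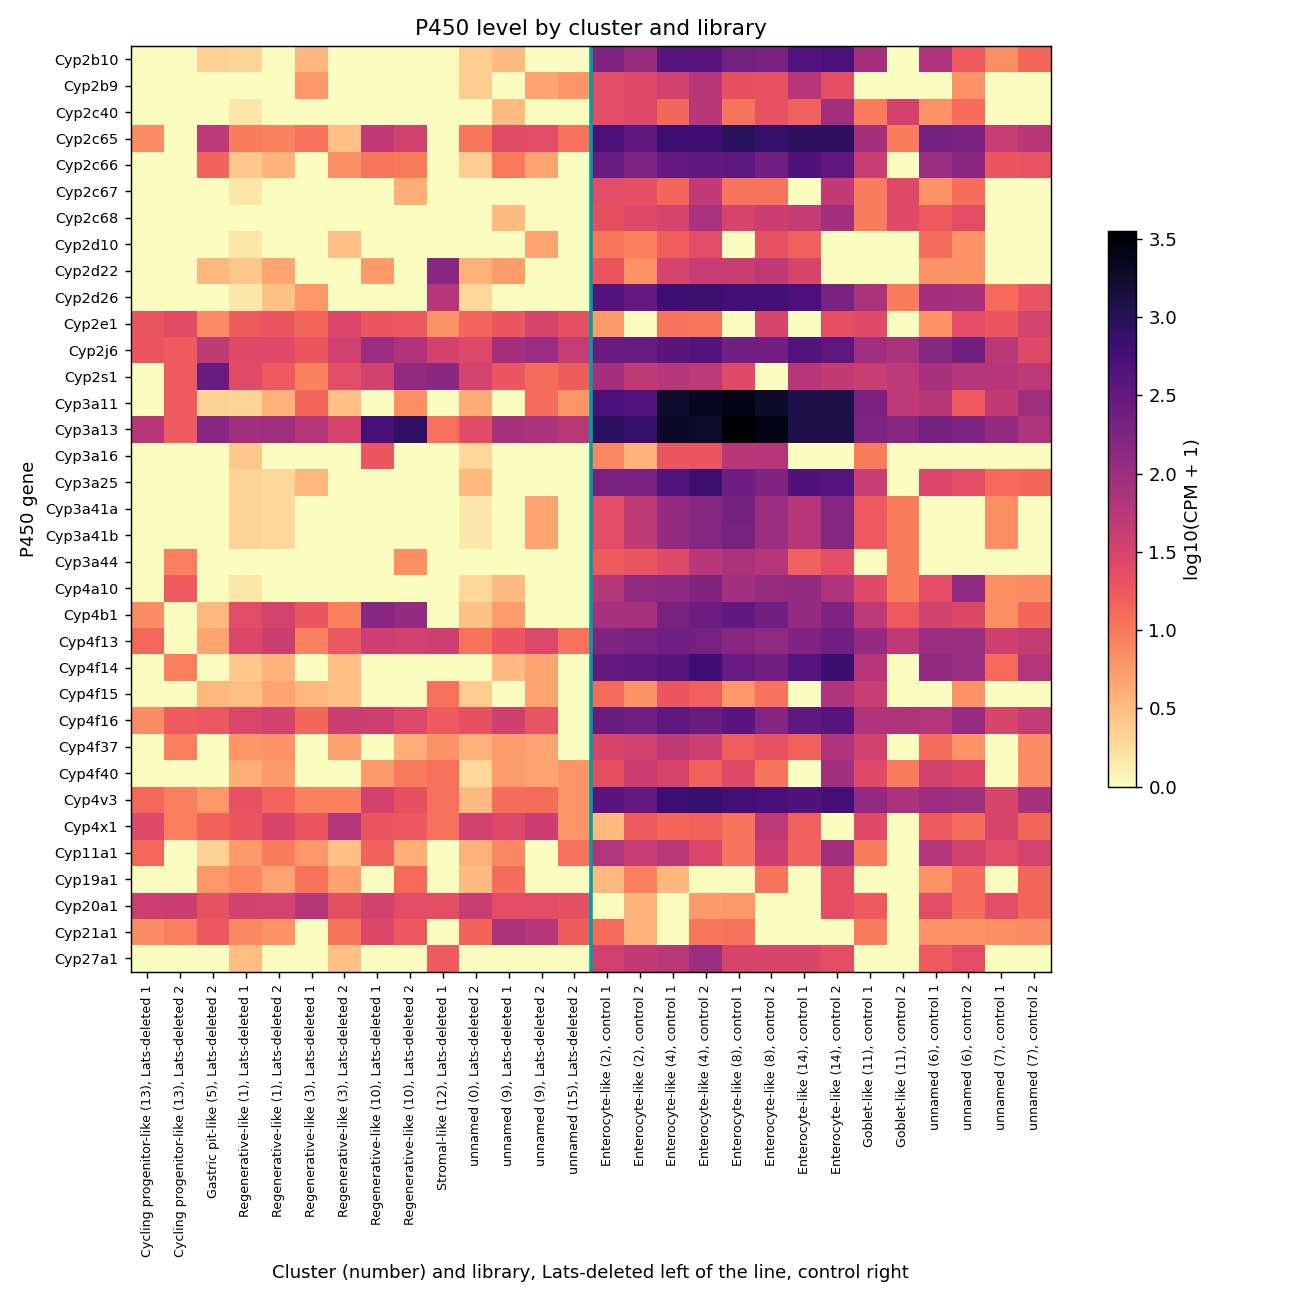
Level of the named members as log10 of plain CPM plus 1 in each cluster and library with at least 20 cells, Lats-deleted columns left of the line and control columns right of it. Control enterocyte-like clusters 2, 4, 8 and 14 are filled for most members, and Cyp3a13 (515 and 832 CPM) and Cyp4b1 (145 and 115 CPM) are higher in cluster 10 than in the other Lats-deleted clusters shown.

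Whether P450 levels differed within enterocyte-like cells could not be settled. Lats-deleted libraries held 32 and 19 such cells, against 550 and 327 in control libraries, and library 2 lay under the minimum of 20 cells, so no test was run. In the sex-linked genes the Lats-deleted cells also differed from the other cells of their own libraries, most clearly in library 1. Xist was found in 1 of 32 (3.13%) and 2 of 19 (10.5%) of them, but in 453 of 694 (65.3%) and 819 of 1270 (64.5%) of the other cells of the same libraries. In control enterocyte-like cells it was found in 1.27% and 1.22%. Its level in the Lats-deleted enterocyte-like cells was 13.1 and 160.3 plain CPM, from 1 and 8 counts, against 6.26 and 5.35 CPM in control enterocyte-like cells, so library 2 lay above control on this scale. The other Lats-deleted cells had 654 and 508 CPM. With each cell thinned to 1000 counts the Lats-deleted shares were 0% and 5.26% inside, against 37.0% and 33.1% outside. The 4 Y-linked genes had 145 and 20.04 plain CPM in the Lats-deleted enterocyte-like cells, from 11 and 1 counts, against 93.9 and 94.9 CPM in control enterocyte-like cells, and 32.4 and 25.4 CPM in the remaining Lats-deleted cells. For library 2 that single count is near its own other cells. None of their barcodes was shared with a kept control cell. Their median counts, 1883 and 1893, lay closer to the control libraries' medians than to those of their own libraries. Low depth was not particular to them, since regenerative-like cluster 3 had medians of 1842 and 2036 in the same Lats-deleted libraries. Which animals or genotype the Lats-deleted enterocyte-like cells came from was not tested, and the values below are given with that limit.

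In these cells the enterocyte markers summed to 3.81% and 4.26% of counts in Lats-deleted libraries and 3.82% and 4.17% in control libraries. Other marker sums differed: the regenerative markers had 237 and 842 plain CPM, against 41.1 and 48.1 CPM, and the gastric pit markers 0 and 301 CPM, against 13.4 and 22.7 CPM. The leukocyte markers had 158 and 20.04 CPM, against 458 and 278 CPM. Their part in the P450 values was not tested. The P450 members summed to 5825 and 4709 plain CPM in Lats-deleted libraries, against 7886 and 6924 CPM in control libraries. Cyp3a11 had 802 and 641 CPM in Lats-deleted enterocyte-like cells and 1387 and 1166 CPM in control ones. Cyp2c66 had 145 and 60.1 CPM, against 307 and 237 CPM, and Cyp3a25 had 158 and 200 CPM, against 302 and 342 CPM. All 3 were lower in both Lats-deleted libraries. Cyp2d26, with 447 and 481 CPM, against 534 and 444 CPM, and Cyp4b1, with 184 and 140 CPM, against 170 and 154 CPM, overlapped. Cyp4f14 had 460 and 461 CPM, against 333 and 420 CPM, and was above control in both. Of the 14 members with at least 10 counts in each group, 10 had a log2 ratio of group means below 0 and 4 above it, from -1.41 to 0.32 with a median of -0.48. The same 14 ranged from -6.22 to -2.64 over all kept cells, with a median of -4.83. Members with fewer counts in the Lats-deleted enterocyte-like cells, such as Cyp3a41a with 1 and 0 counts, could not enter this set. The ratios and their median therefore describe the 14 and not the family.

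**Figure D5:**
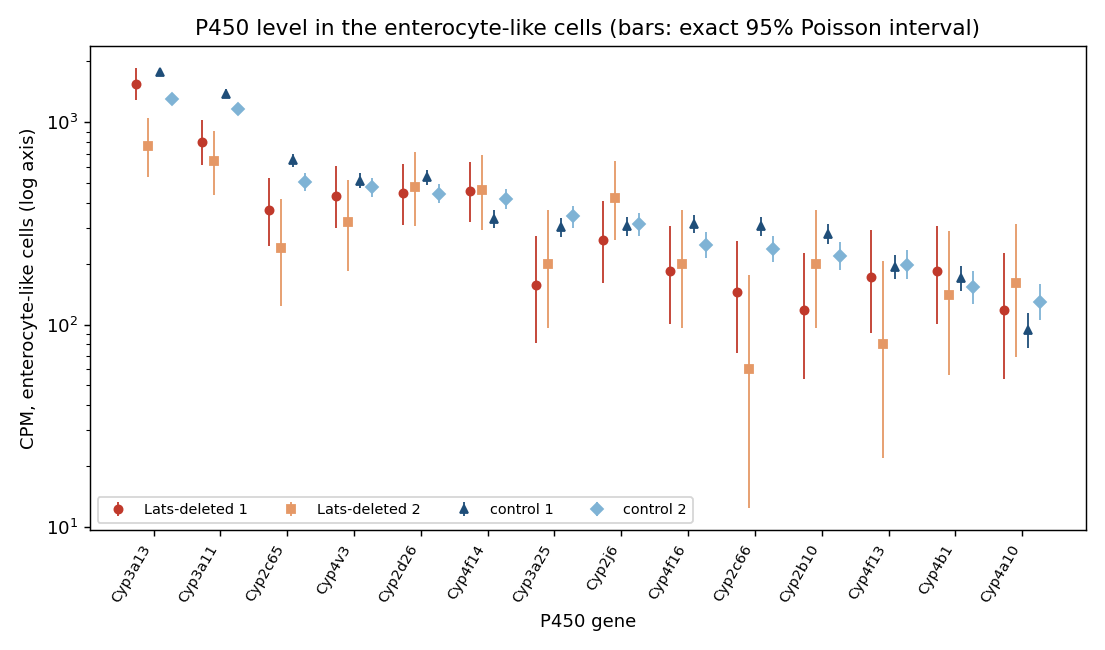
Plain CPM, on a log axis, of the 14 members with at least 10 counts in each group, in enterocyte-like cells of each library. Bars are exact Poisson intervals that cover counting error only. Lats-deleted points overlap control points for Cyp4b1 at 184 and 140 CPM against 170 and 154 CPM, and lie below them for Cyp3a11 at 802 and 641 CPM against 1387 and 1166 CPM.

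The few enterocyte-like cells carried a large share of what Lats-deleted libraries still had of some members. They held 61 of 68 (89.7%) and 32 of 53 (60.4%) Cyp3a11 counts in Lats-deleted libraries, against 97.4% and 97.3% of Cyp3a11 counts in control libraries. Cyp4f14 behaved alike, at 87.5% and 76.7%, against 92.3% and 91.5%. In contrast, they held 24.7% and 5.85% of Cyp3a13 counts in Lats-deleted libraries, against 96.1% and 94.1% in control libraries, and 13.3% and 9.46% of Cyp2j6 counts, against 87.9% and 81.0%. Over all members the shares were 20.4% and 7.83% in Lats-deleted libraries and 93.4% and 90.1% in control libraries.

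The genes that serve or regulate P450s moved in both directions. Of 18 electron donor and haem supply genes tested, 9 were lower and 1 higher over all cells, and 3 and 1 outside enterocyte-like cells. Of all genes tested, 15.5% were lower and 15.3% higher over all cells, and 8.97% and 7.83% outside. The list's median log2 fold change was -0.81 over all cells and -0.26 outside, against 0.046 and 0.034 for all genes. Por, the reductase that feeds all microsomal P450s, had 70.3 and 87.7 TMM-scaled CPM in Lats-deleted libraries and 193 and 146 CPM in control libraries (log2 fold change -1.10 ± 0.24, adjusted p = 0.0145), a call lost without either control library. Outside enterocyte-like cells its fold change was 0.04. Cyb5b, Cyb5r3 and Cyb5a, of the cytochrome b5 electron chain, were lower at -2.51, -2.32 and -1.42, the last not without control library 1 (adjusted p = 0.107) or control library 2 (0.0825). Hmox1, which breaks down haem, was the 1 higher gene, with 86.7 and 67.9 CPM, against 4.25 and 4.39 CPM (4.15 ± 0.32, adjusted p = 0.000319).

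Of 30 nuclear receptors and factors of P450 genes, 28 were tested, 14 lower and 5 higher over all cells, and 12 lower and 2 higher of 26 outside enterocyte-like cells. The shares of higher genes lay near those of all genes, and the medians were -0.97 over all cells and -0.97 outside. Nr1i2 had 14.6 and 8.12 CPM in Lats-deleted libraries and 92.7 and 83.5 CPM in control libraries (-2.98 ± 0.32, adjusted p = 0.001), and was also lower outside enterocyte-like cells (-2.19), a call lost without control library 1 (adjusted p = 0.115) or control library 2 (0.143). Vdr had 26.4 and 10.7 CPM, against 888 and 728 CPM (-5.46), and Hnf4a had 130 and 96.3 CPM, against 380 and 312 CPM (-1.61 ± 0.25, adjusted p = 0.00404, but 0.0802 without control library 1). The groups did not overlap for these 3 receptors. The oxysterol receptor Nr1h3 and the steroid synthesis regulator Nr5a2 were lower at -3.74 and -3.63, and the forkhead factor Foxa2 was higher at 3.31. Among 9 tested pregnane X receptor targets that are not P450s, 6 were lower, among them the transporter Abcc2 (-5.28) and the carboxylesterases Ces2a (-5.54) and Ces2c (-3.81), and 1 was higher. Among 8 tested retinoid genes 4 were lower, including Rdh7 (-5.32), Rbp2 (-5.22) and Lrat (-4.16). Of 5 tested aryl hydrocarbon receptor targets that are not P450s, 1 was lower and none higher, and none of 4 was called outside enterocyte-like cells. All 18 enterocyte reference genes were lower over all cells, with a median of -5.30, beside -3.29 for the 40 tested P450 members.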

How the data were processed

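The deposited files hold counts per cell barcode and gene, whole numbers that the authors made; whether they count unique molecules is not stated. Per the submitters' processing notes the tools were Bowtie 1.1.1.1, SAMtools 1.3.1 and RSEM 1.3.0 and the build was mm10; their settings are not given in the sources used here. Kept counts per library were 3562565 and 5826856 in Lats-deleted libraries and 1603796 and 1228504 in control libraries. Cells were clustered with scanpy 1.11.5 and leidenalg 0.10.2 (Python 3.11.15, 2000 variable genes without P450s, 30 components, 15 neighbours, resolution 1) and clusters were named from marker lists. No doublet caller was run here, so mixed droplets may remain. Counts were summed per library and tested with edgeR 4.0.16 (R 4.3.3: filterByExpr, TMM, quasi-likelihood test, Benjamini-Hochberg adjustment over all genes), and DESeq2 1.42.0 was an alternative. The sum over enterocyte-like cells was to be tested only with at least 20 cells in each library and was therefore not. Intervals and zero limits (3 counts, 95% level) cover counting error only. The script was tested on simulated data. Gene positions are those of GENCODE vM21 on GRCm38, in which 86 members matched, and 65 members had a RefSeq promoter. Members and gene lists were chosen with earlier results of these data known. Members with a mean of at least 10 CPM in a group, over all kept or enterocyte-like cells, were named by rule (41), and up to 4 genes of each partner list by smallest p (1 of them is not reported here), plus Por, Nr1i2 and Hnf4a.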

Additional observations from a re-analysis of the deposited data

How the results depend on the processing

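Of the 30 members called over all kept cells, 24 were called in the same direction under every alternative in which they were tested. The others were Cyp20a1, Cyp2c40, Cyp2d10, Cyp2d34, Cyp3a16 and Cyp4f15. Of the 15 called outside enterocyte-like cells, 5 were called under every alternative in which they were tested. The count of 28 lower members stayed between 24 and 32. The 2 higher members became 1 under DESeq2 (which gave Cyp2d34 no adjusted p), 1 with cells of at least 2000 counts, 1 with the replicate block and 4 without a filter, and 0 to 3 with 1 library left out. Outside enterocyte-like cells, 15 lower members became 5 to 14 with 1 library left out, and 0 higher became 1 without a filter. With the replicate block, 29 members were lower over all cells and 17 outside. Deviations of same-numbered libraries from their group means correlated at only 0.045 over all cells and 0.026 outside. With 2 libraries in each group this cannot show whether they shared a batch. Under the block Cyp2d22 was called lower over all cells (adjusted p = 0.0198) and Cyp27a1 outside (0.0138), and the call of Cyp2d34 was lost (0.0692). Over all genes, 1946 lower and 1923 higher calls became 705 and 523 without control library 1, 861 and 617 without control library 2, and 2906 higher without Lats-deleted library 1. Outside enterocyte-like cells, 1049 lower and 916 higher calls became 225 and 171 without control library 1 and 223 and 160 without control library 2; without clusters of 1 library, an alternative chosen after seeing the data, they became 1717 and 1682. There were 2056 higher without a filter and 1590 without Lats-deleted library 2. With plain library totals the median log2 fold change of all genes was 0.30 over all cells, against 0.046, and 0.18 outside, against 0.034. Members and partners near 0 changed sign. Over all cells Cyp19a1 (-0.12) had 0.0088 under DESeq2, 0.0854 without a filter, 0.13 with plain totals, 0.12 without clusters of 1 library, 0.22 without Lats-deleted library 2 and -0.785 to 1.07 with each library left out; Cyp2e1 (0.28) had -0.038 with cells thinned to 1000 counts; and Cyp2s1 (-0.51) had -1.39 to 0.0078. Outside, Cyp19a1 had 0.15 when clustered with P450 columns and -0.82 to 1.14 with each library left out, Cyp2e1 0.51 with at least 2000 counts, Cyp2s1 -1.26 to 0.0121, and Cyp4b1 0.0865 without clusters of 1 library. Por (0.04) had -0.10 and -0.0732, and Gsta1 (0.39) -0.80 and -0.59, without Lats-deleted library 2 and without clusters of 1 library. With each library left out in turn, Por lay between -0.10 and 0.16 and Gsta1 between -0.80 and 1.03. Causes were not tested. Alternatives for enterocyte-like cells were not run as tests, since library 2 of the Lats-deleted group kept 19 cells. Control cells were shallower, which limits the scarce members most.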
